A study of Mus musculus with 4 samples.

Results

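The type IV collagens are the 6 genes Col4a1 to Col4a6, which encode the chains of the collagen network of basement membranes. They were taken by name, with no measured value used, and make up 6 of the 33696 gene features counted. Their unique molecular identifiers (UMIs, molecules counted by the tag added before amplification) were followed by cell type, fibroblast state, region and library in single nuclei of injured mouse brain at 21 days post-injury (dpi). The injury was photothrombotic (PT), a focal cortical lesion made by light acting on a circulating dye. The mice labelled control had the genotype label WT. The mice labelled Cxcl12-cKO had the label Col1a2(creER); Cxcl12(flox), so that an inducible Cre recombinase driven by Col1a2, a collagen gene active in fibroblasts, could recombine the floxed gene of the chemokine Cxcl12. In each genotype 1 male and 1 female mouse were pooled, lesional and perilesional parenchymal nuclei were tagged apart and mixed at 75% and 25%, and 1 library was made. Paired values below are given first for the control-labelled and then for the Cxcl12-cKO-labelled library unless other sets are named. No genotype had a replicate library, so every difference below is between these libraries, has no test, and cannot be told apart from a difference between mice or preparations.

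Type IV collagen chains join as triple-helical trimers that link at their ends into a sheet-like mesh. The α1 and α2 chains, from Col4a1 and Col4a2, form the trimer found in nearly all basement membranes, including those around brain vessels and under the pial surface. The α3, α4 and α5 chains form the trimer known best from the kidney glomerulus, and α5 pairs with α6 in a few other basement membranes, such as that of the skin. In brain, basement membrane is laid down by endothelial cells, pericytes and smooth muscle cells on the vascular side, by astrocytes on the parenchymal side, and by fibroblasts at the meninges.

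The genes lie in head-to-head pairs that are transcribed away from each other. In the GENCODE annotation of GRCm38, Col4a1 (ENSMUSG00000031502) lies at chr8:11198423-11312826 on the minus strand and Col4a2 (ENSMUSG00000031503) at chr8:11312805-11449287 on the plus strand, so their first exons overlap by 22 bases. Col4a4 (ENSMUSG00000067158) lies at chr1:82448423-82586849 on the minus strand and Col4a3 (ENSMUSG00000079465) at chr1:82586921-82722059 on the plus strand, with starts 72 bases apart. Col4a6 (ENSMUSG00000031273) lies at chrX:141165403-141474076 on the minus strand and Col4a5 (ENSMUSG00000031274) at chrX:141475385-141689234 on the plus strand, with starts 1309 bases apart. The deposited counts were made on GRCm39, so these coordinates are not those of the files. The pair on the X chromosome is shown here because its genes were counted in very unequal proportions in different cells. Each run below is written 5′ to 3′ along its own gene and ends at the base before the GENCODE start, at chrX:141474077-141474326 (minus strand) for Col4a6 and chrX:141475169-141475384 (plus strand) for Col4a5, from the RefSeq promoter table of GRCm38.p6. Capitals mark the CCAAT box in the run of Col4a5 and, in the run of Col4a6, the GC box as it reads on the other strand.
Col4a6 upstream: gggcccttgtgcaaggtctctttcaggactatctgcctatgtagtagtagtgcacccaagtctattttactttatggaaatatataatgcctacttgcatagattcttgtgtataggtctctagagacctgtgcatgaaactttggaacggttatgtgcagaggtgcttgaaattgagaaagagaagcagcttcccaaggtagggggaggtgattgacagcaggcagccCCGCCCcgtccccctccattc
Col4a5 upstream: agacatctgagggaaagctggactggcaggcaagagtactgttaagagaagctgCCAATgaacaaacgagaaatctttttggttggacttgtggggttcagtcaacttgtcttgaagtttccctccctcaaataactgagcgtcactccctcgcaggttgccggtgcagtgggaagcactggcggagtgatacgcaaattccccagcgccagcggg
The table held 5 of the 6 genes, all but Col4a3. Searched on both strands were the TATA box as TATAAA, the CCAAT box, the GC box as GGGCGG, and the motif CCCTCCCC, which can overlap the GC box. Of 32851 promoter windows of that table, 13.6% held the TATA box, 37.4% the CCAAT box, 35.7% the GC box and 10.8% the last motif, so such matches are common. The Col4a5 window also held the GC box, downstream of the printed run, and the last motif on the other strand, across the end of the run. The TATA box was in none of the 5 windows of these genes.

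After filtering, 8095 lesional and 2877 parenchymal nuclei of the control-labelled library and 7933 and 2838 of the Cxcl12-cKO-labelled library remained, with median depths of 2962 to 2975 UMIs in the lesion and 15915 to 16648 in the parenchyma. Barcodes shared by both libraries numbered 47 of 23489. UMIs of both Xist and a Y-linked gene, that is of both mice, occurred in 9.75% to 14.3% of the nuclei of a matrix, and such nuclei are doublets or hold free RNA. Nuclei with UMIs of only Xist or only Y-linked genes were assigned to the female or the male mouse. In the lesion these were 3391 and 2703 nuclei labelled control and 3311 and 2498 labelled Cxcl12-cKO. Nuclei with neither were assigned to no mouse and, like those with both, are left out of values given by mouse. Cxcl12 itself went against the labels in lesional fibroblast-like nuclei, at 106 CPM (95% Poisson interval 101 to 112) and 215 CPM (208 to 223), and it was higher in the Cxcl12-cKO-labelled library in all 6 fibroblast states described below, with intervals that overlapped in state 4. CPM are UMIs of a gene scaled to 1000000 UMIs of the same nuclei. The 3′ counts need not read the deleted part of the gene, whose position no source used here gives, so these counts check nothing, and every direction given here rests on the labels alone. All intervals cover counting error only.

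Over all kept nuclei Col4a1 had 17188 UMIs, Col4a2 16789, Col4a5 6703, Col4a6 4796, Col4a4 396 and Col4a3 65. In the lesion, fibroblast-like nuclei were 51.4% of all nuclei and held 77.4% of the Col4a1 UMIs (95% Clopper-Pearson interval 76.7 to 78.1%), 75.7% of the Col4a2 UMIs and 65.5% of the Col4a5 UMIs. The X-linked Col4a6 was divided otherwise, with 45.4% of its lesional UMIs in fibroblast-like nuclei and 38.8% (37.4 to 40.3%) in astrocyte-like nuclei, which were 5.52% of lesional nuclei. Astrocyte-like nuclei also held 45.6% of the lesional Col4a4 UMIs (39.7 to 51.6%) and 22.3% of the Col4a5 UMIs. The brain's own vessel cells were rare among the nuclei. Endothelial-like nuclei were 0.992% of lesional nuclei and held 2.83% of the Col4a1 UMIs, and mural-like nuclei were 0.374% and held 1.05%. In the parenchyma 89.0% of the Col4a1 UMIs and 86.5% of the Col4a2 UMIs were in excitatory-neuron-like nuclei. That class also made up most parenchymal nuclei, 2188 of 2877 and 2078 of 2838, and its median depth was above that of the parenchyma as a whole.

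**Figure D1:**
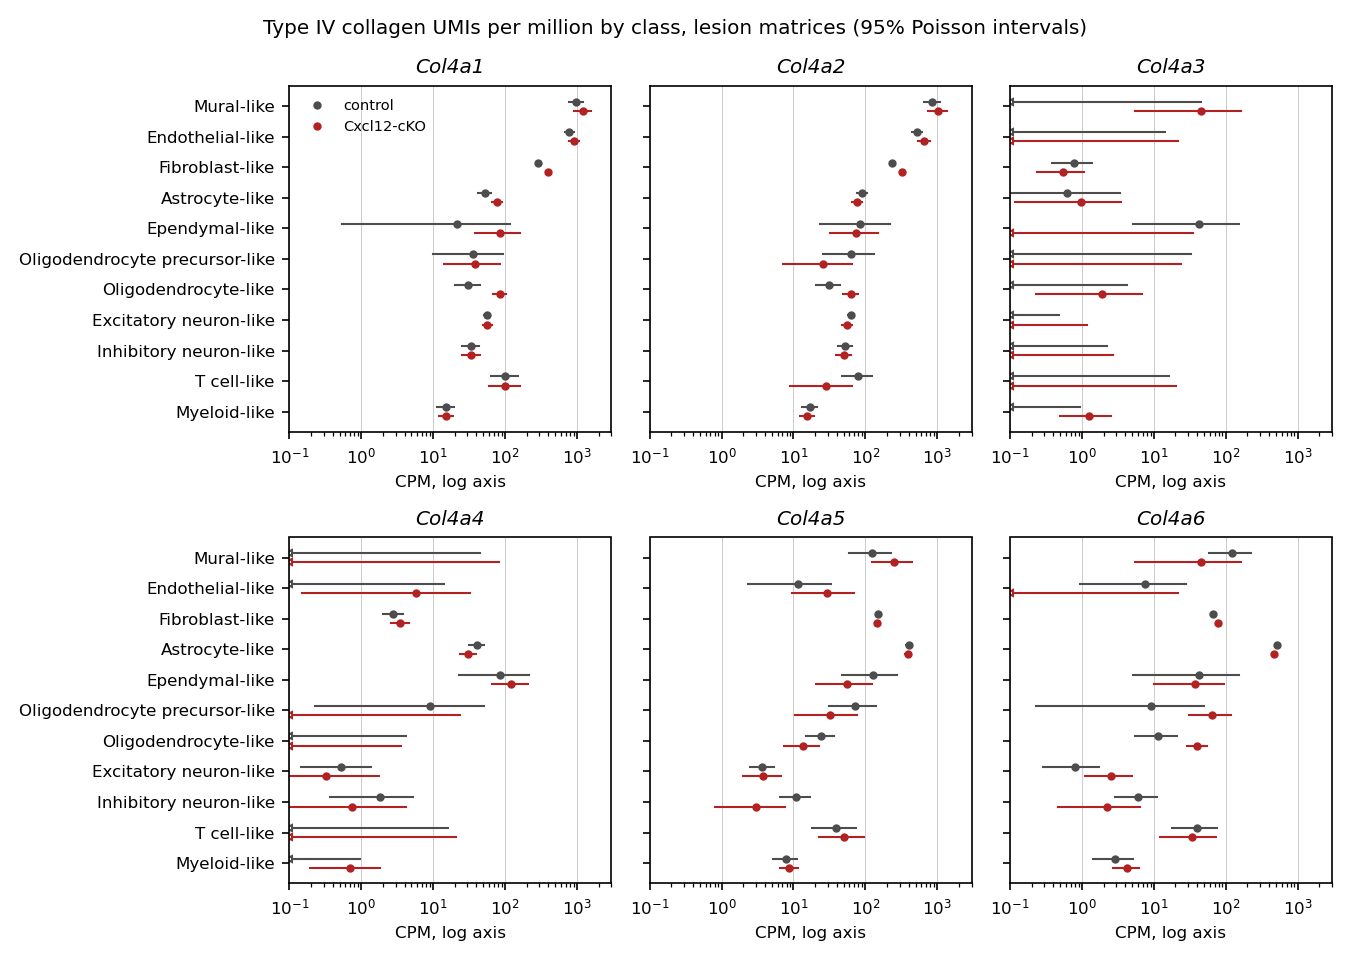
UMIs of each type IV collagen gene scaled to CPM of a class (horizontal log axis) in lesional nuclei, by class and library, with 95% Poisson intervals and open triangles at the axis edge for classes with 0 UMIs. Col4a1 and Col4a2 were at their highest levels in mural-like and endothelial-like nuclei, Col4a5 and Col4a6 in astrocyte-like nuclei, and myeloid-like nuclei were low for all 6 genes.

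Col4a1, the ubiquitous chain whose mutations cause small vessel disease, was at 973 CPM (771 to 1213) in the 43 lesional mural-like nuclei of the control-labelled library and 1208 CPM (908 to 1576) in the 17 of the Cxcl12-cKO-labelled library. In endothelial-like nuclei it was at 785 CPM (682 to 901) in 103 nuclei and 902 CPM (765 to 1056) in 56 nuclei. The mural and endothelial levels did not differ beyond counting error, whereas both stood above the level in fibroblast-like nuclei, 289 CPM (280 to 298) in 4158 nuclei and 391 CPM (381 to 401) in 4076 nuclei. Col4a2, the partner chain, had the same order, with 850 and 1007 CPM in mural-like, 521 and 656 CPM in endothelial-like, and 232 and 326 CPM in fibroblast-like nuclei. In the control-labelled library its mural and endothelial intervals (661 to 1076 and 437 to 616) did not overlap.

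The log2 ratio of Col4a1 in endothelial-like over fibroblast-like nuclei was 1.45 (1.23 to 1.65) in the control-labelled library and 1.21 (0.97 to 1.44) in the Cxcl12-cKO-labelled library. This ratio depended on which nuclei were called endothelial-like. With each nucleus named by its own markers instead of its cluster, 476 and 435 nuclei were endothelial-like, of which 302 and 303 had been fibroblast-like, and the ratio was 0.07 (-0.07 to 0.21) and -0.39 (-0.53 to -0.25). By cluster, all 10 endothelial markers were detected in endothelial-like nuclei at a summed 14073 and 13112 CPM, against 209 and 225 CPM in fibroblast-like nuclei. Within the endothelial-like nuclei the gene was uneven. Adgrl4, Mecom and Flt1 were among the leading genes of both subclusters compared. Subcluster 0, whose leading genes also included Emcn and Selp, was at 1137 and 1305 CPM. Subcluster 3, whose leading genes also included the tight junction gene Cldn5, Vwf and Slc38a5, was at 436 and 316 CPM. The log2 ratio of subcluster 0 over subcluster 3 was 1.38 (0.93 to 1.85) and 2.02 (1.39 to 2.77). Col4a2 differed alike between them, by 1.06 (0.54 to 1.62) and 2.34 (1.55 to 3.35).

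The minor chains were low in vessel cells. Col4a5 was counted with 3 and 5 UMIs in lesional endothelial-like nuclei (11.5 and 29.3 CPM), and Col4a6 with 2 and 0, where a count of 0 allows up to 17.6 CPM (3 counts). In mural-like nuclei Col4a5 was at 123 CPM (59.1 to 227) and 246 CPM (123 to 440), which did not differ from fibroblast-like nuclei beyond counting error. Col4a3 and Col4a4 were at 0 UMIs in the endothelial-like and mural-like nuclei labelled control. In the 12 parenchymal mural-like nuclei of the Cxcl12-cKO-labelled library, Col4a1 was at 367 CPM (183 to 657), and Col4a2 and Col4a5, with 12 UMIs each, at 401 CPM (207 to 700). Fewer than 10 parenchymal mural-like nuclei were kept in the control-labelled library, so no level is given.

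A Col4a1 UMI was found in 42.0% and 46.6% of lesional fibroblast-like nuclei at median depths of 3059 and 3091 UMIs. In myeloid-like nuclei, which should lack the gene, it was found in 3.25% and 3.43% at medians of 2045 and 2250 UMIs. With every nucleus thinned to 1000 UMIs the shares were 20.6% and 22.7% in fibroblast-like nuclei (110 and 99 left out) against 1.47% and 1.54% in myeloid-like nuclei (99 and 119 left out). The 58 and 85 Col4a1 UMIs of myeloid-like nuclei were fewer than the 118 and 165 they would hold if their UMIs of Col1a1, Col1a2 and Dcn, genes of fibroblasts, came with Col4a1 in the ratio of fibroblast-like nuclei. Their level of 15.0 and 15.1 CPM was therefore taken as background. T-cell-like nuclei stood higher, at 101 and 101 CPM, but their 23 and 18 Col4a1 UMIs were close to the 19.4 and 12.8 that the same fibroblast genes would bring.

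Fibroblast-like nuclei were divided into 6 states by clustering without the collagens and other basement membrane genes. State 2 carried 3 of 5 leptomeningeal markers and state 3 carried 3 of 5 markers of altered dural fibroblasts. The other states had fewer than 3 of any list and go by number, with Nav2 and Cdh18 leading state 0, Prg4 and Kng2 state 1, Gm30613 and Dcdc2a state 4, and Sox6 and Cpa6 state 5. The list of late inner fibroblasts, which includes Cdh18, held only 3 genes. State 0 had 2 of them up, and its mean log2 fold for that list was 1.65, against 1.01 for the leptomeningeal list in state 2. The states differed widely in type IV collagen, and the clusters from which they were cut were made from the same nuclei, so these levels are a description. Col4a1 was highest in state 4, at 683 CPM (control) and 749 CPM (Cxcl12-cKO), followed by state 0 at 344 and 445, state 1 at 314 and 393 and state 5 at 288 and 270 CPM. States 2 and 3, the 2 named from marker lists, had the lowest levels, 173 and 155 CPM in state 2 and 99.6 and 112 CPM in state 3. This order does not set meningeal against other fibroblasts. Unnamed state 1 was nearest to the pial list, with 1 of 4 markers up and a mean log2 fold of 0.61. The list of lymphocyte-interactive fibroblasts came second for it, at 0.43, and Cd80, a marker of that list, was among its leading genes. Most state 4 nuclei came from a cluster whose leading genes included Lama1, the laminin chain of the pial basement membrane. In the control-labelled library the intervals of states 0 and 1 (326 to 363 and 296 to 334) overlapped, as did those of states 1 and 5, while in the other library no neighbours in the order overlapped. Col4a2 ran from 521 and 601 CPM in state 4 to 97.4 and 113 CPM in state 3.

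State 4 stood apart most for the X-linked pair. Col4a6 was at 544 CPM (504 to 585) and 431 CPM (402 to 461) in its 396 and 564 nuclei, and at 18.1 and 24.2 CPM in the other lesional fibroblast-like nuclei, 30.1-fold and 17.8-fold higher. State 4 thereby held 700 of the 934 Col4a6 UMIs of lesional fibroblast-like nuclei in the control-labelled library and 842 of 1148 in the Cxcl12-cKO-labelled library. Col4a5 was at 621 and 470 CPM in state 4 against 103 and 92.1 CPM in the others, 6.05-fold and 5.11-fold higher. A Col4a6 UMI was found in 55.1% and 50.4% of state 4 nuclei (40.2% and 30.5% after thinning) and in at most 7.80% of the nuclei of any other state. Although it was kept out of clustering, Col4a6 was among the 10 leading genes of state 4, as was Col15a1, another basement membrane collagen.

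Outside state 4 the chains were divided. The leptomeningeal-like state 2 had Col4a5 at 170 and 114 CPM and Col4a6 at 57.4 and 58.4 CPM. State 0 had Col4a5 at 111 and 103 CPM with Col4a6 at 17.5 and 24.0 CPM. In the dural-like state 3 Col4a5 was at 76.6 and 66.8 CPM and Col4a6 at 5.11 and 5.48 CPM. State 5 kept Col4a1 but had 8 and 1 UMIs of Col4a5 (12.4 and 3.29 CPM) and 0 and 2 UMIs of Col4a6. Col4a3 and Col4a4 were scarce, and 6 of the 11 and 5 of the 8 Col4a3 UMIs of lesional fibroblast-like nuclei lay in state 4. Astrocyte markers (7 of 7 detected) summed to 1291 and 1052 CPM in state 4, against 271 and 307 CPM in state 0 and 1084 and 1567 CPM in state 2, and mural markers (8 and 10 of 11 detected, Higd1b at 0 in both libraries) to 1125 and 1257 CPM, against 1046 and 1247 CPM in state 0 and 1463 and 1701 CPM in state 5. State 4 was thus not the only state with either marker list at such levels. The part of other cells in the levels of state 4 was not tested.

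**Figure D2:**
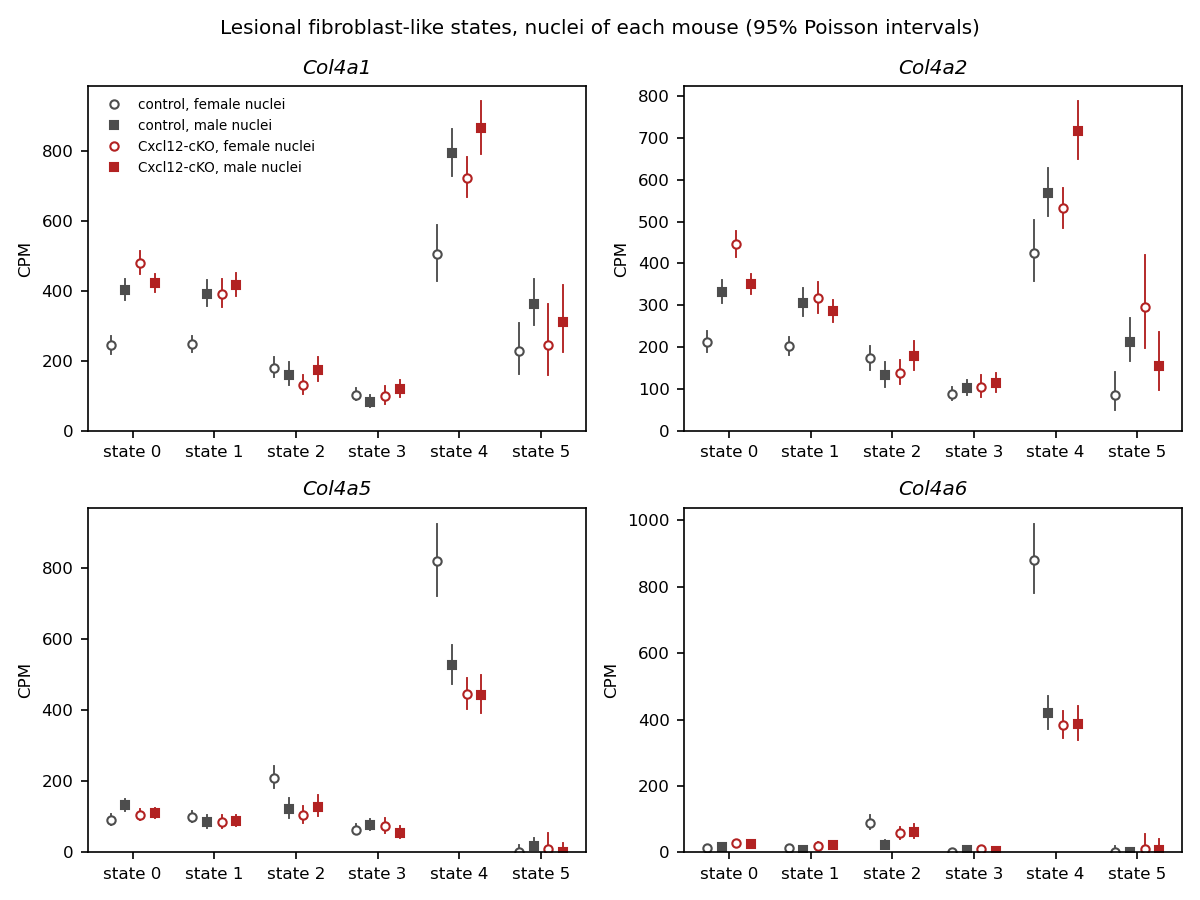
Level of Col4a1, Col4a2, Col4a5 and Col4a6 (CPM, vertical axis from 0) in the 6 lesional fibroblast-like states, in the nuclei of each mouse, with 95% Poisson intervals. State 4 was highest for every gene, and the control-labelled female lay below the other mice for Col4a1 in states 0, 1 and 4 and above them for Col4a6 in states 2 and 4.

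The libraries were next compared within each state, to ask whether type IV collagen differed with the genotype label. The fibroblast-like class was not compared as a whole, since the leading genes of 1 of its 3 clusters, first-level cluster 0, included an endothelial marker, Erg. No fibroblast marker was among the leading genes of any of the 3 clusters. State 0 came almost wholly from cluster 0 (1091 of 1119 and 1384 of 1407 nuclei), so the same limit bears on it and on the class levels given above. All 8 fibroblast markers were up in cluster 0, however. The 10 endothelial markers summed to 250 and 309 CPM in state 0, against 14073 and 13112 CPM in endothelial-like nuclei. A gene was called where its log2 ratio reached 0.5 in size with at least 20 UMIs over both libraries. In state 0 Col4a1 was 344 CPM in the control-labelled library and 445 CPM in the Cxcl12-cKO-labelled library, a log2 ratio of 0.37 (0.27 to 0.47), and Col4a2 was 274 and 385 CPM, a ratio of 0.49 (0.38 to 0.60). Neither was called, in a state where 7.52% of 13715 genes were called higher and 6.75% lower. Col4a2 lay close to the threshold and passed it under 5 other ways of choosing or naming the nuclei, at 0.52 to 0.60.

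Both ratios were larger between the females than between the males. Col4a1 in state 0 was 244 CPM in the nuclei of the control female, 404 in those of the control male, 480 in those of the female labelled Cxcl12-cKO and 422 in those of the male labelled Cxcl12-cKO. The control female was lowest and the female labelled Cxcl12-cKO highest, and the intervals of the males (374 to 435 and 396 to 448) overlapped. The log2 ratio was 0.97 (0.79 to 1.16) between the females and 0.06 (-0.08 to 0.21) between the males. Col4a2 was 212 CPM in the control female and 333, 446 and 350 CPM in the control male and the female and male labelled Cxcl12-cKO, with ratios of 1.07 (0.88 to 1.27) and 0.07 (-0.08 to 0.23). In state 1 the control female was again lowest for Col4a1, with 248 CPM in the control female and 392, 392 and 417 CPM in the control male and the female and male labelled Cxcl12-cKO, and a pooled ratio of 0.32 (0.20 to 0.44). In these states the control female differed from the control male by more than the males of the libraries differed from each other. Col4a6, scarce in both states, was laid out otherwise. In state 0 it was 11.9 and 14.9 CPM in the control female and male and 27.8 and 24.7 CPM in the female and male labelled Cxcl12-cKO. The log2 ratios were 1.19 (0.40 to 2.11) and 0.72 (0.04 to 1.47), although over all nuclei of the state the ratio was 0.45 (0.02 to 0.90) and not called. The pooled ratio also holds nuclei assigned to no single mouse. Of its 68 control UMIs 17 and 25 were in female and male nuclei, and of its 129 Cxcl12-cKO UMIs 49 and 60.

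In state 4 the major and the X-linked chains lay on opposite sides of no difference. Col4a5 was 621 CPM in the control-labelled library and 470 in the Cxcl12-cKO-labelled library, a log2 ratio of -0.40 (-0.54 to -0.26), and Col4a6 was 544 and 431 CPM, a ratio of -0.34 (-0.48 to -0.19). Col4a1 and Col4a2 had ratios of 0.13 (0.01 to 0.26) and 0.21 (0.07 to 0.35). None was called, where 10.1% of 10964 genes were higher and 10.1% lower. Here too the control female was apart. Col4a6 was 880 CPM in its nuclei, and 420, 383 and 388 CPM in the control male and the female and male labelled Cxcl12-cKO. Between the females the log2 ratio was -1.20 (-1.43 to -0.97), and between the males it was -0.11 (-0.37 to 0.14). Col4a5 was 818 CPM in the control female and 525, 445 and 442 CPM in the other mice, with ratios of -0.88 (-1.11 to -0.65) and -0.25 (-0.48 to -0.02).

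State 4 was also made up differently in the libraries. In the control-labelled library 329 of its 396 nuclei, and in the other library 370 of 564, came from first-level cluster 6, led by Gm30613, Slc7a11 and the laminin gene Lama1, while 54 and 169 came from cluster 0, led by the elastin gene Eln. The Col4a6 ratio of state 4 moved both ways with the choice of nuclei. It was -0.10 (-0.24 to 0.05) with filter bounds taken within each region, and -0.51 (-0.67 to -0.35), past the threshold, without nuclei holding UMIs of both sexes.

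Calls in the other states rested on few UMIs or on the lesser chains. In state 1, 2 of 5 genes tested were called higher, Col4a6 at 12.5 and 19.9 CPM (log2 ratio 0.66, 0.09 to 1.26) and Col4a4 at 4.08 and 7.36 CPM (0.83, -0.16 to 1.92), where 7.75% of all genes were called higher and 8.76% lower. In state 2, 2 of 5 were called lower, Col4a5 at 170 and 114 CPM (-0.58, -0.84 to -0.32) and Col4a4 from 13 and 7 UMIs (-0.71, -2.32 to 0.68), against 9.28% called lower and 8.13% higher. Col4a5 was 210 CPM in the control female and 121, 104 and 128 CPM in the control male and the female and male labelled Cxcl12-cKO, so the ratio between the males was 0.08 (-0.40 to 0.56). In state 0 the 1 gene of 5 called was Col4a4, whose 6 and 15 UMIs gave 0.79 (-0.59 to 2.51), within counting error. None of the 4 genes tested in state 3 was called (background 8.56% higher and 7.66% lower), nor either of the 2 tested in state 5 (14.6% higher and 12.2% lower).

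In vessel cells Col4a1 had a log2 ratio of 0.20 (-0.11 to 0.51) in endothelial-like nuclei and 0.32 (-0.22 to 0.83) in mural-like nuclei, and Col4a2 of 0.33 (-0.04 to 0.70) and 0.25 (-0.33 to 0.81). These differences were not detectable at this depth. The endothelial background was 15.1% of genes called higher and 17.8% lower, and the mural background 20.3% and 22.5%. In mural-like nuclei Col4a5, from 10 and 11 UMIs, was called higher with an interval across 0 (0.99, -0.38 to 2.39).

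Among the lesional classes, astrocyte-like nuclei had the highest levels of the pair on the X chromosome, although for Col4a5 the interval of mural-like nuclei in the Cxcl12-cKO-labelled library overlapped theirs. Col4a6 was at 512 CPM (478 to 548) in 433 nuclei labelled control and 463 CPM (434 to 494) in 452 nuclei labelled Cxcl12-cKO. Col4a5 was at 398 CPM (368 to 430) and 385 CPM (359 to 413). Relative to lesional fibroblast-like nuclei, Col4a6 was 7.81-fold and 5.89-fold higher and Col4a5 2.66-fold and 2.70-fold higher, while Col4a1, at 52.2 and 77.2 CPM, was lower by a log2 ratio of -2.46 and -2.34. Col4a4, the partner of Col4a3 in the glomerular trimer, was at 40.6 CPM (31.4 to 51.6) and 30.8 CPM (23.7 to 39.4) in astrocyte-like nuclei and at 2.81 and 3.50 CPM in fibroblast-like nuclei. It reached 84.9 CPM (23.1 to 217) and 122 CPM (64.8 to 208) in the 11 and 21 ependymal-like nuclei, which line the ventricles. Col4a3 had 1 and 2 UMIs in astrocyte-like nuclei, so Col4a4 made up 98.5% (92.0 to 100.0%) and 96.9% of the UMIs of that pair, against 78.4% and 86.4% in fibroblast-like nuclei.

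The astrocyte counts lay far above what free fibroblast RNA would bring. At the fibroblast ratio to Col1a1, Col1a2 and Dcn, 7.47 and 9.72 Col4a6 UMIs would be held, against 833 and 948 found, and 17.1 and 17.6 Col4a5 UMIs against 647 and 788. All 8 fibroblast markers were detected, at a summed 310 and 238 CPM. For Col4a1 the margin was narrow, 32.9 and 48.3 UMIs against 85 and 158. The astrocyte-like nuclei were not uniform in Col4a6. Subcluster 1 was at 746 and 717 CPM and subcluster 3 at 398 and 395 CPM, log2 ratios of 0.91 (0.70 to 1.12) and 0.86 (0.66 to 1.06), although both were led by Aqp4, a water channel of astrocyte endfeet, Gfap and A2m. Col4a5 did not share this difference, at 402 and 312 CPM in subcluster 1 and 430 and 418 CPM in subcluster 3, and Col4a1 was lower in subcluster 1, at 17.1 and 59.4 CPM against 81.9 and 85.2 CPM, with log2 ratios of -2.20 (-3.33 to -1.32) and -0.50 (-1.17 to 0.08).

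Lesional and parenchymal astrocyte-like nuclei were compared within each library, to see where the chains were higher. Col4a6 was at 512 CPM in the lesion and 87.1 CPM (49.8 to 142) in 37 parenchymal nuclei labelled control, and at 463 and 47.5 CPM (23.7 to 85.0) in 452 and 45 nuclei labelled Cxcl12-cKO. The log2 ratio of lesion over parenchyma was 2.51 (1.85 to 3.37) and 3.22 (2.44 to 4.29). Col4a5 was at 185 and 138 CPM in the parenchyma, with ratios of 1.08 (0.61 to 1.65) and 1.46 (0.97 to 2.04). All 5 tested genes, Col4a1, Col4a2, Col4a4, Col4a5 and Col4a6, were called higher in the lesion in both libraries, where 34.9% and 35.3% of all genes were, with a median over all genes of 0.15 and 0.14. Col4a1, Col4a2 and Col4a4 had at most 7 parenchymal UMIs each, and the Col4a4 interval included 0 in both libraries. After thinning, a Col4a6 UMI was found in 33.6% and 32.5% of lesional and 2.70% and 2.22% of parenchymal nuclei.

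**Figure D3:**
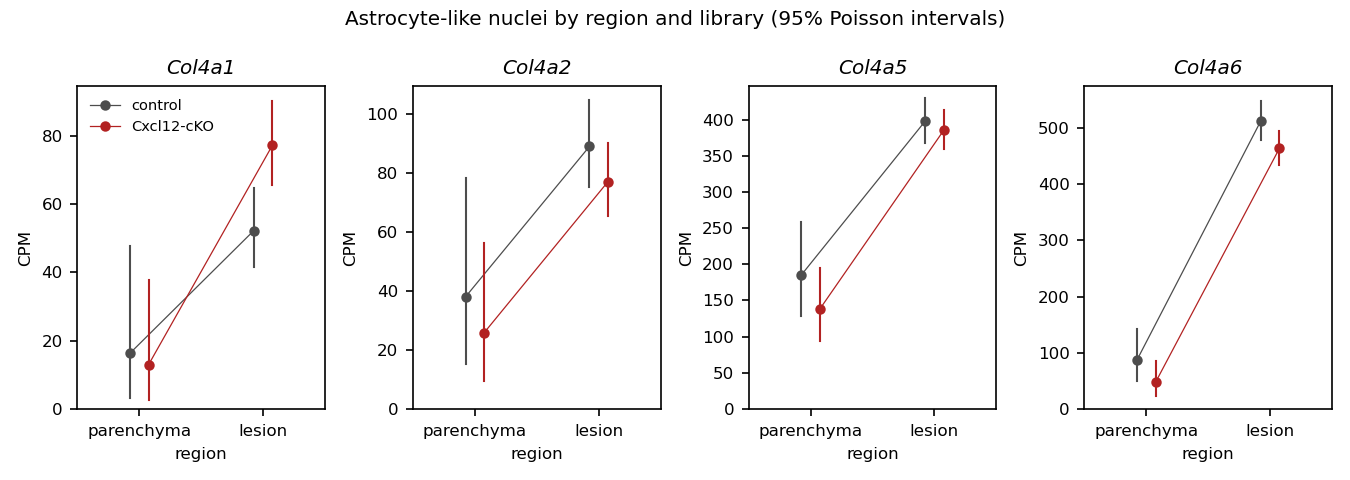
Level of Col4a1, Col4a2, Col4a5 and Col4a6 (CPM, vertical axis from 0) in parenchymal and lesional astrocyte-like nuclei of each library, with 95% Poisson intervals and lines joining the regions of a library. Every gene was higher in the lesion in both libraries, and the parenchymal and lesional intervals of Col4a5 and Col4a6 did not overlap.

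The regions held different astrocyte-like nuclei. Subcluster 2, led by Grin2c and Slc7a10, held 33 of the 37 and 42 of the 45 parenchymal nuclei, and 54 and 18 lesional nuclei, whereas subclusters 1 and 3 held the other lesional nuclei. Within subcluster 2 Col4a6 was at 198 CPM (140 to 272) in the lesion and 61.6 CPM (29.5 to 113) in the parenchyma of the control-labelled library, and at 233 CPM (136 to 373) and 27.4 CPM (10.1 to 59.7) in the Cxcl12-cKO-labelled library. The intervals did not overlap in either library. Col4a5 was at 251 and 160 CPM, and at 178 and 119 CPM, with intervals that overlapped.

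Between the libraries, lesional astrocyte-like Col4a5 and Col4a6 had log2 ratios of -0.05 (-0.20 to 0.11) and -0.14 (-0.28 to -0.01), and Col4a2 and Col4a4 of -0.21 (-0.54 to 0.13) and -0.40 (-0.92 to 0.12). Col4a1 alone of the 5 genes tested was called, at 0.56 (0.17 to 0.96), against a background of 9.6% higher and 11.1% lower. By mouse it was 60.4 CPM in the control female, 37.8 in the control male, 58.5 in the female labelled Cxcl12-cKO and 106 in the male labelled Cxcl12-cKO, so the ratio was -0.05 (-0.64 to 0.55) between the females and 1.46 (0.73 to 2.33) between the males. Endothelial markers in these nuclei (10 of 10 detected) summed to 165 and 307 CPM, and their part in the result was not tested.

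Neuron-like nuclei, which are not thought of as makers of basement membrane, had low but steady counts of the major chains. In parenchymal excitatory-neuron-like nuclei Col4a1 was at 51.4 CPM (49.2 to 53.7) in 2188 nuclei and 50.6 CPM (48.4 to 52.9) in 2078 nuclei, and Col4a2 at 68.8 CPM (66.3 to 71.5) and 66.3 CPM (63.8 to 68.9). A Col4a1 UMI was found in 50.3% and 51.7% of these nuclei, whose median depths were 17470 and 18410 UMIs. Thinning, which left out 3 and 10 nuclei, gave 4.44% and 4.74%, against the 1.47% and 1.54% of lesional myeloid-like nuclei. At the fibroblast ratio, 91.0 and 125 Col4a1 UMIs would be held, against 2041 and 1968 found. Col4a5 was near background in the same nuclei, with 42 and 55 UMIs against 47.1 and 45.7, and Col4a6 had 34 and 52 UMIs against 20.6 and 25.2. The fibroblast ratio counts only free RNA that comes with Col1a1, Col1a2 and Dcn, and the myeloid-like nuclei were of the lesion. Free RNA of vessel cells in the parenchyma was not tested. Inhibitory-neuron-like nuclei of the parenchyma had Col4a1 at 26.3 and 27.2 CPM and Col4a2 at 50.5 and 46.4 CPM.

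The major chains of excitatory-neuron-like nuclei were close in the lesion and the parenchyma. Col4a1 was at 56.2 and 56.8 CPM in 504 and 235 lesional nuclei, log2 ratios over the parenchyma of 0.13 (-0.03 to 0.28) and 0.17 (-0.06 to 0.39), and Col4a2 had ratios of -0.15 and -0.26, in a comparison whose median over all genes was -0.14 and -0.12. In the control-labelled library 7.74% of genes were called higher and 30.1% lower, and in the Cxcl12-cKO-labelled library 11.2% and 29.6%. Col4a5 was called higher in both (1.81 and 1.48) from 28 and 12 lesional UMIs, against 41.2 and 11.3 expected at the fibroblast ratio. Of 5 genes tested, Col4a4 was also called lower in the control-labelled library (-0.63, -2.73 to 0.70) and Col4a6 higher in the other (1.01, -0.35 to 2.02), both within counting error.

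The mice differed in the neuronal counts. In parenchymal excitatory-neuron-like nuclei of the control-labelled library Col4a1 was at 62.6 CPM in the male and 40.4 CPM in the female, a log2 ratio of 0.63 (0.49 to 0.77), and Col4a2 at 83.1 and 54.2 CPM, 0.62 (0.50 to 0.73). Both were called, where 6.06% of genes were called higher in the male. In the Cxcl12-cKO-labelled library the ratios were 0.32 (0.18 to 0.46) and 0.20 (0.08 to 0.33), not called, with 6.3% of genes higher, and Col4a6 alone of 5 was called there, at 0.50 (-0.40 to 1.42). In lesional excitatory-neuron-like nuclei the ratios for Col4a1 and Col4a2 were 1.06 (0.73 to 1.38) and 0.96 (0.66 to 1.26) in the control-labelled library and 0.52 (-0.09 to 1.06) and 0.94 (0.37 to 1.47) in the other, from 36 to 217 UMIs in a mouse. Inhibitory-neuron-like nuclei had no such difference beyond counting error (-0.14, -0.62 to 0.33, and -0.14, -0.61 to 0.31, for Col4a1). With 1 mouse of each sex in a library, sex and mouse cannot be told apart.

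Since the partners of a pair lie head to head, the division of a pair's UMIs was compared between sets of nuclei. Col4a2 made up 44.3% (42.3 to 46.3%) and 46.4% (44.9 to 47.9%) of the UMIs of Col4a1 and Col4a2 in state 0 and 43.3% and 44.5% in state 4. It was 39.9% and 42.1% in endothelial-like nuclei, and 57.3% (55.8 to 58.7%) and 56.7% (55.3 to 58.2%) in parenchymal excitatory-neuron-like and 65.8% (61.6 to 69.7%) and 63.0% (59.0 to 66.8%) in parenchymal inhibitory-neuron-like nuclei. States 2 and 3 lay between, at 47.4% and 51.1% in state 2 and 49.4% and 50.2% in state 3. Excitatory-neuron-like nuclei were not alike, with 58.5% and 57.3% in parenchymal cluster 1 and 50.7% (47.0 to 54.3%) and 53.4% (49.5 to 57.3%) in parenchymal cluster 10, which overlapped states 2 and 3. Lesional excitatory-neuron-like nuclei were at 52.5% and 49.3%, and the few parenchymal fibroblast-like nuclei at 61.0% (44.5 to 75.8%) and 60.7% (40.6 to 78.5%).

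The pair on the X chromosome, whose upstream runs are printed above, ranged far more widely. Col4a6 made up 6.25% (3.61 to 9.95%) and 7.59% of the pair in state 3, 13.6% and 18.9% in state 0, 11.3% and 18.7% in state 1 and 25.2% and 33.9% in state 2. In state 4 it made up 46.7% (44.1 to 49.2%) and 47.8% (45.5 to 50.2%), and in lesional astrocyte-like nuclei 56.3% (53.7 to 58.8%) and 54.6% (52.2 to 57.0%). Parenchymal astrocyte-like nuclei were at 32.0% (19.5 to 46.7%) and 25.6% (13.5 to 41.2%), and astrocyte subcluster 1 had the highest share of these sets, 65.0% and 69.7%. The order of these sets was alike in the libraries apart from state 2 and parenchymal astrocyte-like nuclei, whose intervals overlapped in both.

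**Figure D4:**
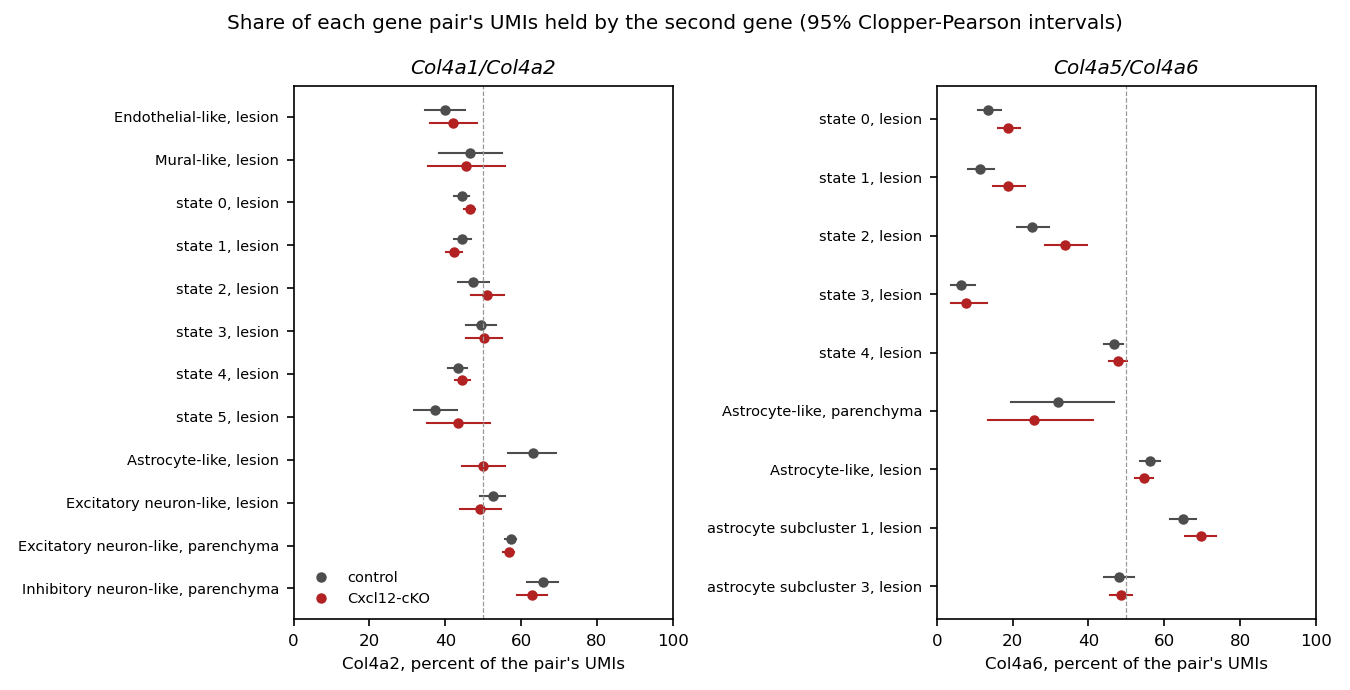
Share of a gene pair's UMIs held by Col4a2 (left) and by Col4a6 (right), in percent, by set of nuclei and library, with 95% Clopper-Pearson intervals and a dashed line at 50%. The left panel spans 37.4% to 65.8% and the right panel 6.25% to 69.7%.

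Partners were also found together in the same nuclei. With fibroblast-like nuclei thinned to 1000 UMIs, a Col4a2 UMI was found in 29.4% and 39.2% of nuclei with a Col4a1 UMI and in 15.2% and 16.7% of those without. A Col4a6 UMI was found in 22.8% and 23.0% of nuclei with a Col4a5 UMI and in 2.94% and 3.67% of those without. These shares pool all fibroblast states, so differences between states enter them. In state 4 thinned nuclei had a Col4a5 UMI in 42.7% and 32.9% and a Col4a6 UMI in 40.2% and 30.5%. Co-detection within a state was not tested. Between pairs the difference was slight, with a Col4a5 UMI in 13.3% and 13.4% of nuclei with Col4a1 and 11.4% and 11.2% of those without. In astrocyte-like nuclei Col4a6 was found in 41.3% and 38.7% of nuclei with Col4a5 and 29.7% and 30.2% of those without.

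The genes most alike in pattern were found by Pearson's r of log2(CPM + 1) over 29 sets of nuclei (class, region and library), which share libraries and depth, among 16390 genes, as a description. For Col4a1 they were Col4a2 (0.93), Erg (0.89), Ybx3, Plcg1 and Mapk12, and for Col4a2 they were Col4a1, Sptbn1, Nrep, Zfp423 and Mapk12. For Col4a5 they included Slc7a2, Gli2, Pdpn and Add3. Col4a6 was most like Aldh1a1 (0.95), a retinaldehyde dehydrogenase, and the genes alike also included Slc13a3, Lrig1 and Col4a5 (0.90). For Col4a4 they included Fam107a (0.83), Plcd4, Gm30524 and Cnmd. Col4a1 and Col4a5 had an r of 0.47, and Col4a1 and Col4a6 of 0.27.

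Other genes of the basement membrane were then compared between the libraries, from a list of 56 laminins, other components, folding and crosslinking factors, receptors, and proteases with their inhibitors. In state 0, 1 of the 49 genes tested was called higher and 0 lower. The called gene was the laminin Lamb1, at 18.8 and 33.7 CPM (log2 ratio 0.84). In state 1, 4 of 48 were higher, the collagens Col15a1 (1.41) and Col18a1 (0.57), the laminin receptor subunit Itga6 (0.79) and the protease inhibitor Timp1 (0.55), and 3 were lower, the laminin Lamc3 (-1.14), the collagen chaperone Serpinh1 (-0.50) and the prolyl hydroxylase P3h1 (-0.72). In state 4, 3 of 46 were higher, the peroxidase Pxdn (0.63), which crosslinks type IV collagen, P4ha3 (1.07) and Timp1 (0.94), and 4 were lower. Of these Lama1, the laminin chain of the pial basement membrane, went from 1065 to 666 CPM (-0.68) and Lamc3 from 143 to 78.3 CPM (-0.87), with Loxl2 (-0.60) and the adhesion receptor Adgrg6 (-1.74) from 40 and 23 UMIs. The intervals of Itga6 in state 1 and of P4ha3 and Loxl2 in state 4 included 0. The list's medians were -0.002 in state 0, -0.03 in state 1 and -0.13 in state 4, beside 0.004, -0.02 and -0.009 over all genes.

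State 2 had 2 of 43 higher (Plod3 and Timp1) and 6 lower (Serpinh1, P4ha2, Colgalt1, Itgb4, Adgrg6 and Timp2), with a median of -0.07. State 3 had 2 of 43 higher (Lama1 and Itga6) and 2 lower (Crtap and Itga3). State 5 had 6 of 36 higher (Agrn, Serpinh1, P4ha3, P3h1, Cd44 and Adgrg6) and 6 lower (Lama3, Lamc1, Smoc2, Colgalt1, Itgb1 and Timp2). In endothelial-like nuclei 8 of 32 were higher (Col18a1, Pxdn, Plod1, P3h2, Itga2, Mmp14, Timp2 and Timp3) and 5 lower (Lamb1, Serpinh1, Colgalt2, Itga1 and Ddr2). In mural-like nuclei 4 of 17 were higher (Sparc, Dag1, Cd44 and Timp3) and 3 lower (P3h2, Cert1 and Itgb1). Timp3 was the gene of the list called higher in both vascular classes, at 218 and 369 CPM in endothelial-like (0.76, 0.22 to 1.30) and 123 and 268 CPM in mural-like nuclei (1.11, -0.21 to 2.49). In astrocyte-like nuclei 6 of 46 were higher and 1 lower, with a median of 0.13 against -0.02 over all genes. The shares called higher were above those of all genes in endothelial-like nuclei (8 of 32 against 15.1%) and astrocyte-like nuclei (6 of 46 against 9.6%). They were close to those of all genes, though above, in state 1 (4 of 48 against 7.75%), state 5 (6 of 36 against 14.6%) and mural-like nuclei (4 of 17 against 20.3%). The share called lower was above that of all genes in state 2 (6 of 43 against 9.28%) and state 5 (6 of 36 against 12.2%). These counts are small. Of the 8 genes higher in endothelial-like nuclei 3 had intervals above 0 (Col18a1, P3h2 and Timp3), and of the 6 lower in state 2 the intervals of 4 lay below 0 (Serpinh1, Colgalt1, Adgrg6 and Timp2). In states 0, 3 and 4 both shares were below those of all genes.

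The list's 5 genes with the most UMIs in lesional fibroblast-like nuclei were the laminins Lama2, Lama4 and Lamc1, the collagen receptor Ddr2 and Sparc, a matrix protein that binds type IV collagen. Lama2 ranged over the states from 1062 to 1906 CPM in the control-labelled library and from 1078 to 2087 CPM in the Cxcl12-cKO-labelled library, and was highest in state 4 in both. Lama4 was also highest in state 4, at 529 and 600 CPM. Their log2 ratios between the libraries in state 4 were 0.13 (0.06 to 0.20) and 0.18 (0.05 to 0.32), while Lamc1 had -0.39 (-0.53 to -0.24) there. In state 5 Lamc1 was called lower (-1.04, -1.69 to -0.46). Ddr2 stayed between -0.21 and 0.16 over the 6 states, and Sparc between -0.45 and 0.25.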

How the data were processed

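The deposited values were whole-number UMI counts per gene and nucleus, in 4 filtered matrices that the authors made with Cell Ranger 9.0.0 on GRCm39, per the labels, with no normalization. The labels name 4 samples, a gene expression and a tag library of each genotype. The sources used here do not say how intronic reads were counted. Of the 33696 features 52 shared a symbol with another and were kept apart, and 0 columns of per-sample values were unused.

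Of 23489 barcodes, those beyond the lowest or highest 2.5% by UMIs or genes, or the highest 2.5% by mitochondrial share, were removed, and 21743 nuclei with 757 to 36244 UMIs were kept. Counts were scaled to 10000 per nucleus, and 3000 variable genes, 30 principal components and 20 neighbours went into Leiden clusters of resolution 0.25 (0.3 for lesional fibroblast-like nuclei, with 2000 variable genes) in scanpy 1.11.5. The type IV collagens, the basement membrane list, Cxcl12, mitochondrial and sex-linked genes were left out. Clusters were named from marker lists, with at least 3 markers up and a mean log2 fold of at least 0.4, and 11 classes were named. This threshold, a rule that subclusters with at least 25% of nuclei holding UMIs of both sexes are mixed and left out of classes, and a rule that left a cluster led by bone genes unnamed were chosen with the clusters in view. Scrublet marked 29 and 16 nuclei and had not worked, so no doublet caller was used.

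For each set of nuclei the UMIs of a gene were added up and divided by all UMIs of the set to give CPM, with exact 95% Poisson intervals. Log2 ratios had 0.5 added to each sum and exact conditional binomial intervals, and shares had Clopper-Pearson intervals. No p-value was computed, since each genotype was 1 library. The code was tested on simulated data. Intervals came from scipy 1.17.1, components and neighbours from scikit-learn 1.9.0, and tables from pandas 2.3.3 and numpy 2.4.6 under Python 3.11.15. The named genes were all 6 collagens, the 5 genes most alike in pattern to each with at least 200 UMIs, and, of the basement membrane list, the called genes of fibroblast-like states and vessel cells and the 5 with the most UMIs. Some genes that this rule names are not reported here. The collagens and all lists were chosen with earlier results of these data known. The alternatives were per-nucleus weighting, Leiden resolution 0.5, naming each nucleus by its own markers, clustering with the left-out genes, removal of nuclei with UMIs of both sexes, of the highest 10% of Scrublet scores or of nuclei under 1000 UMIs, filter bounds within each region, each mouse alone, scaling to the median gene, a minimum of 50 UMIs and a log2 ratio of 1.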

Additional observations from a re-analysis of the deposited data

Results flagged for a closer look

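Col4a6 in state 2, the leptomeningeal-like fibroblast nuclei, differed between the libraries in opposite directions in the females and the males. Between the females the log2 ratio of Cxcl12-cKO over control as labelled was -0.63 (-1.22 to -0.08), from 78 control and 42 Cxcl12-cKO UMIs. Between the males it was 1.41 (0.53 to 2.44), from 14 control and 38 Cxcl12-cKO UMIs. The levels were 90.0 CPM in the control female, 23.0 in the control male, 57.6 in the female labelled Cxcl12-cKO and 62.6 in the male labelled Cxcl12-cKO, so the control mice lay on either side of the others. The difference between the ratios was not tested.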

How the results depend on the processing

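Of 527 values recomputed for 61 results under the alternatives, 388 were labelled unchanged, 135 moved further and 4 changed the sign of a called ratio. Ratios and shares were labelled unchanged within the counting error of the main value. Counts of genes, which have no interval, were labelled so if equal to the main count or of similar size. Changes of sign in ratios that were not called were not counted as such. No paired analysis was possible because no result came from a test. Ratios between mice of the same sex are given, but the labels do not pair those mice. Vessel cells (17 to 103 lesional nuclei of a class and library) and parenchymal astrocyte-like nuclei (37 and 45) were few, which limited their precision.

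With each mouse alone, in state 0 the females and males gave 0.97 and 0.063 for Col4a1 and 1.07 and 0.074 for Col4a2, and in state 4 they gave -0.88 and -0.25 for Col4a5 and -1.20 and -0.11 for Col4a6. Col4a5 in state 2 was 0.080 in the males and astrocyte-like Col4a1 was -0.048 in the females, both with the sign changed. The Col4a1 ratio of endothelial-like over fibroblast-like nuclei was 2.25 and 1.14 in the control mice and 0.96 in the female labelled Cxcl12-cKO. State 4 over other states for Col4a6 was 5.35 and 5.25 in the control mice and 3.77 in the female labelled Cxcl12-cKO, and astrocyte-like Col4a6 in lesion over parenchyma was 2.13 in the male labelled Cxcl12-cKO.

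Naming nuclei by their own markers gave endothelial-like over fibroblast-like ratios of 0.072 (control) and -0.39 (Cxcl12-cKO) for Col4a1 and -0.36 for Col4a2 (Cxcl12-cKO), the latter both with the sign changed, and 4.64 for Col4a6 in state 4 over other states (control). Here 302 and 303 nuclei changed from fibroblast-like to endothelial-like. Leiden resolution 0.5 gave 1.13 and 0.65 for endothelial-like Col4a1, -0.24 and -0.15 for Col4a5 and Col4a6 between libraries in state 4, and 4.45 for Col4a6 in state 4 over others (Cxcl12-cKO). Clustering with the left-out genes gave 0.49 for Col4a1 in state 0, -0.25 and -0.17 for Col4a5 and Col4a6 in state 4, and 5.17 and 4.49 for state 4 over others. Bounds within each region gave 0.47 for Col4a1 in state 0, -0.24 and -0.099 for Col4a5 and Col4a6 in state 4, 1.67 for endothelial-like Col4a1 (control) and 4.63 for state 4 over others (Cxcl12-cKO), which was 4.48 with per-nucleus weighting. Without nuclei of both sexes Col4a6 in state 4 was -0.51 and thereby called. Apart from naming, the causes were not tested.

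Counts of basement membrane genes were small and moved. In state 0 the 1 higher and 0 lower became 2 and 3 with per-nucleus weighting, 3 and 2 at resolution 0.5, 3 and 1 by own markers, 2 and 3 with the left-out genes, 2 and 1 without nuclei of both sexes, 3 and 1 without high Scrublet scores, 7 and 1 in the females, 4 and 3 in the males, 3 and 5 with regional bounds and 0 higher at a log2 ratio of 1. In state 4 the 3 higher became 6 in the females, 1 with regional bounds and 1 at a log2 ratio of 1, and the 4 lower became 7 by own markers, 12 in the females, 2 with a minimum of 50 UMIs and 1 at a log2 ratio of 1.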

Other observations

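Fibroblast-like nuclei were also found in the parenchyma, 51 in the control-labelled library and 50 in the Cxcl12-cKO-labelled library, and 44 and 39 of them came from first-level cluster 2, led by Ranbp3l, Cdh1 and Ptgds. Their Col4a1 was below that of lesional fibroblast-like nuclei, at 71.5 and 51.6 CPM, and Col4a2 at 112 CPM (72.3 to 165) and 79.7 CPM (46.4 to 128). In the same nuclei Col4a5 was at 103 and 150 CPM and Col4a6 at 121 and 159 CPM, and Col4a6 made up 54.0% (39.3 to 68.2%) and 51.5% (38.9 to 64.0%) of the pair, from 50 and 66 UMIs. In leptomeningeal-like state 2 of the lesion, which is mostly of the same cluster, Col4a6 made up 25.2% (21.2 to 29.7%) and 33.9% (28.5 to 39.6%). This difference was not tested.

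In lesional oligodendrocyte-like nuclei Col4a1 was at 30.9 CPM (20.4 to 45.0) and 84.5 CPM (67.8 to 104), control-labelled library first. Its 27 and 88 UMIs compared with 50.7 and 68.8 expected if the Col1a1, Col1a2 and Dcn UMIs of these nuclei came with Col4a1 in the fibroblast ratio.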
